A study of Mus musculus with 49 samples.

Results

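Cxcl1, Cxcl2 and Cxcl3, which encode chemokines that attract neutrophils, and Csf3, which encodes granulocyte colony-stimulating factor (G-CSF), were followed in mouse bone marrow-derived macrophages with and without Elf4. The 4 genes were taken by name from the table of 14896 genes listed for these macrophages, and all 4 were found there and passed the filter on low values that left 12058 genes for testing. Macrophages were grown from bone marrow for 7 days with the macrophage growth factor M-CSF, from C57BL/6 mice that were wild type (WT) or Elf4 knockout (KO). Polyadenylated RNA was sequenced before stimulation (0 h) and after 4 h or 16 h with the bacterial product lipopolysaccharide (LPS) at 100 ng/ml, in 3 libraries per genotype and time. Each of the 18 columns of the table carries its own mouse number. Values from naive CD4 T cells of WT and Elf4 KO mice and from Th17 cultures of WT and Elf4 W250S mice, all of strain C57BL/6, appear only among the other observations; the pathogenic Th17 cultures received IL-6, IL-23 and IL-1b and the non-pathogenic ones IL-6 and TGF-beta. WT and KO macrophage cultures shared the strain, the growth factor and the LPS dose. The KO was not restricted to a cell type in the labels, and the age of the mice, the allele and the number of KO founder lines are not given in the sources used here. The study asked how loss of ELF4, a transcription factor of the ETS family, changes inflammatory gene expression.

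Macrophages that sense LPS through TLR4 signal by MyD88 and TRIF to the transcription factor NF-κB, which turns on the genes of neutrophil-attracting CXC chemokines within hours. CXCL1, CXCL2 and CXCL3 bind the receptor CXCR2 on neutrophils and draw them into tissue, while G-CSF acts through its receptor CSF3R in the bone marrow, where it drives the formation and release of neutrophils. The mRNAs of these genes carry AU-rich elements, through which RNA-binding proteins such as tristetraprolin speed their decay, so their levels are the balance of synthesis and decay.

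The 3 chemokine genes lie on the plus strand of mouse chromosome 5. In the RefSeq annotation of GRCm38.p6, the mm10 build named in the submitters' processing notes, Cxcl3 spans chr5:90786101-90788093, Cxcl1 spans chr5:90891245-90893121 and Cxcl2 spans chr5:90903899-90905938. The starts of Cxcl1 and Cxcl2 are close neighbours, with 10.8 kb between the gene bodies, and Cxcl3 lies 103 kb from Cxcl1. Csf3 lies apart from them at chr11:98700183-98703631. The 250 bases before each annotated start are shown for the chemokine genes because the same pair of motifs recurs in all 3. The sequences are from RefSeq, with 3 of the 4 genes matched in the promoter table. Each is written 5′ to 3′ on the gene's strand, and capitals mark the κB decamer and the TATA-like octamer.
Cxcl3 (chr5:90785851-90786100): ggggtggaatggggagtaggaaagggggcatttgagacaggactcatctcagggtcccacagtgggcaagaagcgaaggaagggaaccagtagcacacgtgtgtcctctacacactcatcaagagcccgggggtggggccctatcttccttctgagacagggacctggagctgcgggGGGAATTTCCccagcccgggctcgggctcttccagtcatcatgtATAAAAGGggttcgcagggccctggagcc
Cxcl1 (chr5:90890995-90891244): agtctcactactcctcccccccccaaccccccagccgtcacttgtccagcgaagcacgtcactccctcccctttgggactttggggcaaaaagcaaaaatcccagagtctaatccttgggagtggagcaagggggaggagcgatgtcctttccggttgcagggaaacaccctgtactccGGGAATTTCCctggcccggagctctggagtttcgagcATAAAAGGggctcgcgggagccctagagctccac
Cxcl2 (chr5:90903649-90903898): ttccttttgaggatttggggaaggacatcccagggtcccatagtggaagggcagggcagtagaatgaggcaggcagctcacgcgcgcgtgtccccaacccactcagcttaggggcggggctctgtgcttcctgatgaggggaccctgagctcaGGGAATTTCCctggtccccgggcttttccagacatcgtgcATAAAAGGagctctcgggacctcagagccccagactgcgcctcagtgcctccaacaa

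The κB pattern (GGG, any 4 bases, then TCC) is a form of the DNA site to which NF-κB is known to bind. On the gene's strand, the decamer GGGAATTTCC is the 1 sequence matching this pattern that all 3 windows share. The decamer starts 71 bases before the start of Cxcl1, 97 before that of Cxcl2 and 73 before that of Cxcl3. Of 32817 such windows of 250 bases in the same table, searched on both strands, 28 (0.0853%) held this decamer and 16.5% held the wider pattern. In all 3 windows the wider pattern also has a match on the minus strand, at positions that overlap the decamer. The octamer ATAAAAGG, a TATA-like sequence, begins 34, 57 and 29 bases before the start in Cxcl1, Cxcl2 and Cxcl3, and 507 windows (1.54%) held it. The ETS core GGAA is too short to set these promoters apart, since 93.4% of windows held it on one strand or the other and the κB decamer itself contains it. A longer ETS sequence, CCGGAA, was found upstream of Cxcl1 alone among the 3, on the minus strand from 101 to 96 bases before the start, and in 12.0% of all windows. A motif match describes letters in the window and says nothing about binding in these cells.

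**Figure D1:**
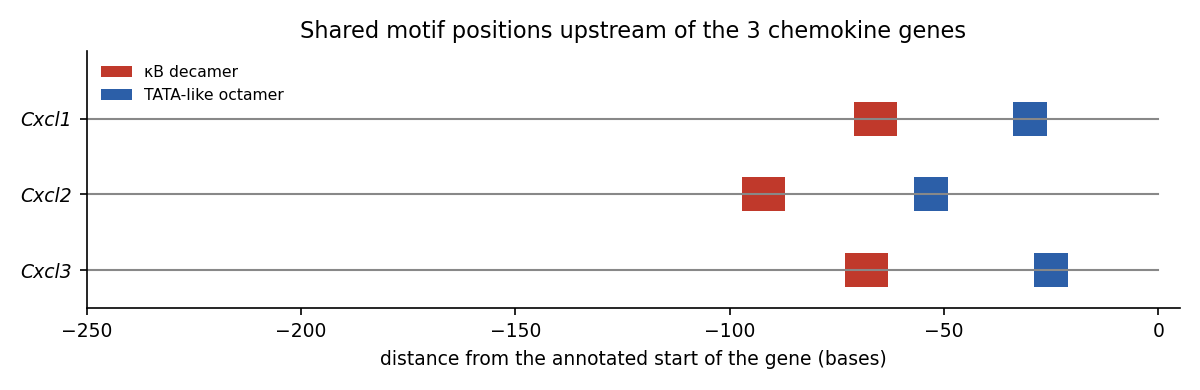
Positions of the κB decamer and the TATA-like octamer in the 250 bases upstream of Cxcl1, Cxcl2 and Cxcl3, as distance in bases from the annotated start of each gene. The decamer sits between the octamer and the far end of the window in all 3 genes, and both lie farther from the start in Cxcl2.

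The libraries held 11.5 to 16.8 M reads, taken from what a single read is worth in CPM, the unit of the table, in which counts are scaled to the total of each library. Elf4 was 64.6 to 134 CPM in the WT libraries and 15.5 to 32.6 CPM in the KO libraries, with no overlap, and its KO minus WT difference was -2.22, -1.95 and -2.12 on the log2(CPM + 1) scale at 0, 4 and 16 h. Defining macrophage markers such as Adgre1, Csf1r and Lyz2 were abundant in every library. Of 11 neutrophil markers listed, 8 stayed below 10 CPM in every library, among them the early granule genes Elane, Mpo and Prtn3, while S100a8 reached 98.4 CPM, Mmp8 68.7 CPM and Csf3r, which macrophages also express, 174 CPM. Markers of stromal cells, collagen-producing cells of the marrow, were present: the summed level of 10 markers was 282 to 948 CPM over the WT libraries and 409 to 2800 CPM over the KO libraries, and KO replicate 2 was the highest library at each time. In bulk samples, fewer cells of a type and less RNA per cell cannot be told apart.

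Before LPS, the chemokine genes were near the lower limit of the measurement. Cxcl2 was 1.45, 1.38 and 0.801 CPM in WT replicates 1 to 3 and 2.23, 1.54 and 0.766 CPM in KO replicates 1 to 3. Cxcl1 was 0.161, 0.382 and 0.0667 CPM in WT and 0.131, 0.448 and 0.487 CPM in KO. Cxcl3 was 0.321, 0.153 and 0.133 CPM in WT and 0.459, 0.192 and 0.348 CPM in KO. WT and KO libraries overlapped for each of the 3 genes, and each value below 1 CPM rests on 12 reads or fewer. Csf3 had 1 read over the 3 WT libraries, in replicate 2 (0.0764 CPM), and 1, 2 and 2 reads in the KO libraries (0.0655, 0.128 and 0.139 CPM).

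None of the 4 genes passed the KO minus WT test at 0 h, where 0.44% of all tested genes were called in either direction (limma, Benjamini-Hochberg adjusted p below 0.05). The differences on the log2(CPM + 1) scale were 0.17 ± 0.24 (SE) for Cxcl1, 0.16 ± 0.17 for Cxcl2, 0.15 ± 0.18 for Cxcl3 and 0.12 ± 0.32 for Csf3, with adjusted p from 0.884 to 0.975. No difference in resting level was detected at these read numbers, and the added count of 1 CPM shrinks differences of low genes. This does not show that the resting levels were equal.

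After 4 h of LPS, the chemokine mRNAs reached their highest measured levels in both genotypes. Cxcl2, a CXCR2 ligand made early by activated macrophages, was 480, 640 and 435 CPM in WT replicates 1 to 3 and 832, 829 and 742 CPM in KO replicates 1 to 3. All 3 KO libraries lay above all 3 WT libraries. Cxcl1, its close relative, was 51.6, 87.1 and 45.6 CPM in WT and 96.0, 160 and 92.3 CPM in KO. The KO libraries were again the higher 3, although the lowest KO library exceeded the highest WT library by only a small margin. Cxcl3 was 84.0, 103 and 89.5 CPM in WT and 153, 141 and 167 CPM in KO, with no overlap.

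Relative to 0 h, the level of Cxcl2 in reads over library size rose 439-fold in WT (95% exact interval 331 to 595, counting error only) and 523-fold in KO (413 to 672). Cxcl1 rose 313-fold in WT (159 to 726) and 324-fold in KO (199 to 568), and Cxcl3 rose 468-fold in WT (237 to 1080) and 466-fold in KO (282 to 834). The intervals of the genotypes overlapped for each gene. These ratios rest on total reads, and the intervals leave out the choice of scaling. For Cxcl2 in WT, edgeR and DESeq2 on recovered reads gave larger changes, of 9.588 and 9.689 on the log2 scale. They gave 9.035 and 9.2 for Cxcl1 and 9.613 and 9.779 for Cxcl3 in WT. For Cxcl2 in KO they gave 9.814 and 9.907. All 4 genes passed the test of 4 h against 0 h as higher in WT and in KO, where 15.6% of tested genes did so in each genotype (35.2% in WT and 34.8% in KO under median-ratio scaling). Cxcl1, Cxcl3 and Csf3 stayed under 1 CPM in every library at 0 h, so they entered the test through their stimulated libraries. The median tested gene changed by -0.811 in WT and -0.773 in KO from 0 h to 4 h, and by 0.349 and 0.433 from 4 h to 16 h, on the log2(CPM + 1) scale.

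**Figure D2:**
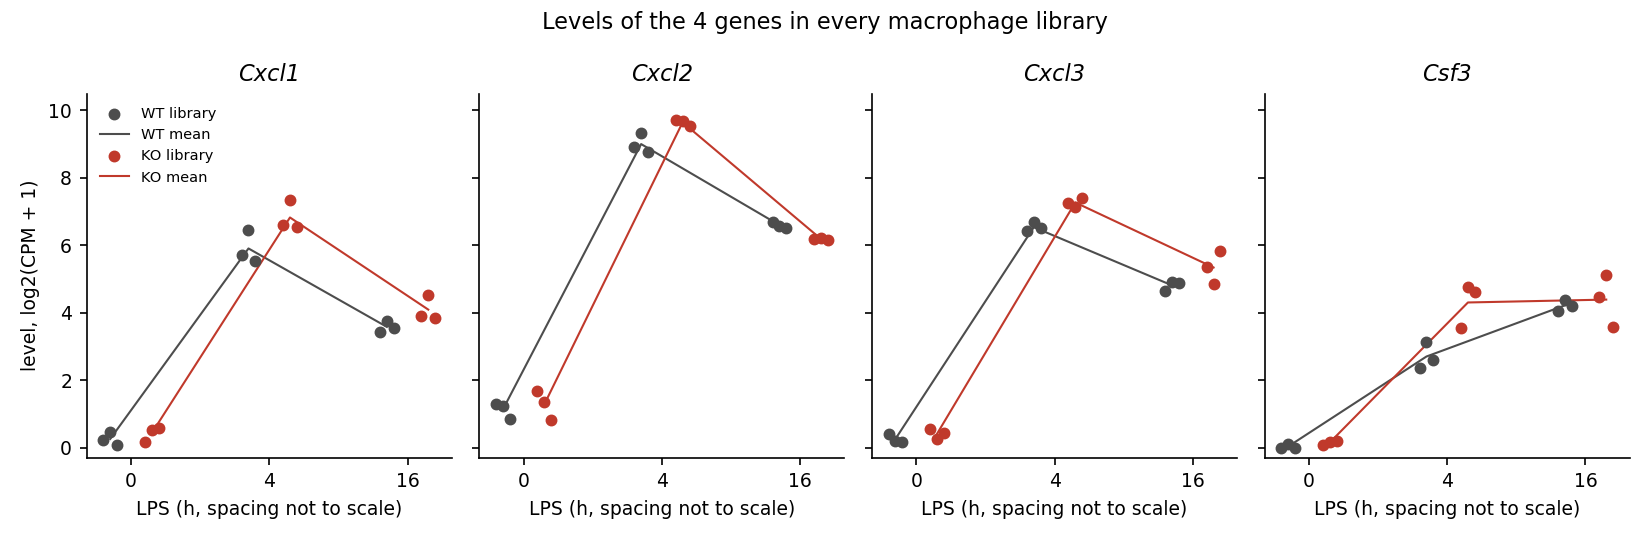
Level of each gene in every library, as log2(CPM + 1), at 0, 4 and 16 h of LPS; points are libraries in the order of replicates 1 to 3 and lines join group means. The chemokine genes peak at 4 h in both genotypes, whereas WT libraries hold more Csf3 at 16 h than at 4 h.

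Csf3 followed another course from the chemokines. At 4 h it was 4.16, 7.75 and 5.12 CPM in WT replicates 1 to 3 and 10.6, 26.2 and 23.5 CPM in KO replicates 1 to 3. Every KO library exceeded every WT library, and KO replicate 1 was the lowest of the KO libraries. At 16 h it was 15.7, 19.9 and 17.5 CPM in WT and 21.3, 33.5 and 11.0 CPM in KO. The WT values at 16 h lay within the wide range of the KO values. In WT, Csf3 rose again between 4 h and 16 h, by 1.51 ± 0.32 on the log2(CPM + 1) scale (adjusted p = 0.000383), as did 51% of tested genes. Under median-ratio scaling that share was 33%, with 36.6% called lower, and the Csf3 change was 1.13 (adjusted p = 0.00385). In KO the change from 4 h to 16 h was 0.09 ± 0.32 (adjusted p = 0.813), and it turned to -0.387 under median-ratio scaling and to -0.041 without the 3 KO libraries numbered 2. The WT libraries held 1 Csf3 read at 0 h and 219 at 4 h, a ratio of 233 with a counting interval of 41.3 to 9230. The KO libraries held 5 reads at 0 h and 839 at 4 h, a ratio of 185 with an interval of 78.8 to 570. On the log2 scale, edgeR and DESeq2 gave larger rises of 8.138 and 8.657 in WT and 8.143 and 8.362 in KO.

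By 16 h the chemokine mRNAs had fallen from their 4 h level in both genotypes. Cxcl2 was 103, 94.2 and 90.9 CPM in WT replicates 1 to 3 and 71.7, 73.6 and 70.4 CPM in KO replicates 1 to 3. Here the order of the genotypes was the opposite of that at 4 h, with all 3 KO libraries below all 3 WT libraries. Cxcl1 was 9.80, 12.5 and 10.8 CPM in WT and 14.0, 21.9 and 13.5 CPM in KO. Cxcl3 was 24.2, 28.9 and 28.4 CPM in WT and 39.8, 27.8 and 55.8 CPM in KO. The KO libraries were the higher 3 for Cxcl1, while for Cxcl3 KO replicate 2 fell among the WT libraries.

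The fall from 4 h to 16 h was steepest for Cxcl2 in KO, by group means. Its KO mean at 16 h was 8.98% of that at 4 h, against 18.5% in WT. Cxcl1 kept 14.2% in KO and 18% in WT, and Cxcl3 kept 26.8% in KO and 29.5% in WT. On the log2(CPM + 1) scale, Cxcl2 changed by -2.40 ± 0.17 in WT and by -3.46 ± 0.17 in KO. Cxcl1 changed by -2.32 ± 0.24 in WT and by -2.73 ± 0.24 in KO, and Cxcl3 by -1.72 ± 0.18 and -1.93 ± 0.18. Each of these 6 changes passed the test, as did 22.1% of tested genes in WT and 19.6% in KO in that direction (36.6% and 35% under median-ratio scaling). All 4 genes were still higher at 16 h than at 0 h in both genotypes, against 18.3% of tested genes in WT and 17.8% in KO (33.5% and 31.2% under median-ratio scaling).

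**Figure D3:**
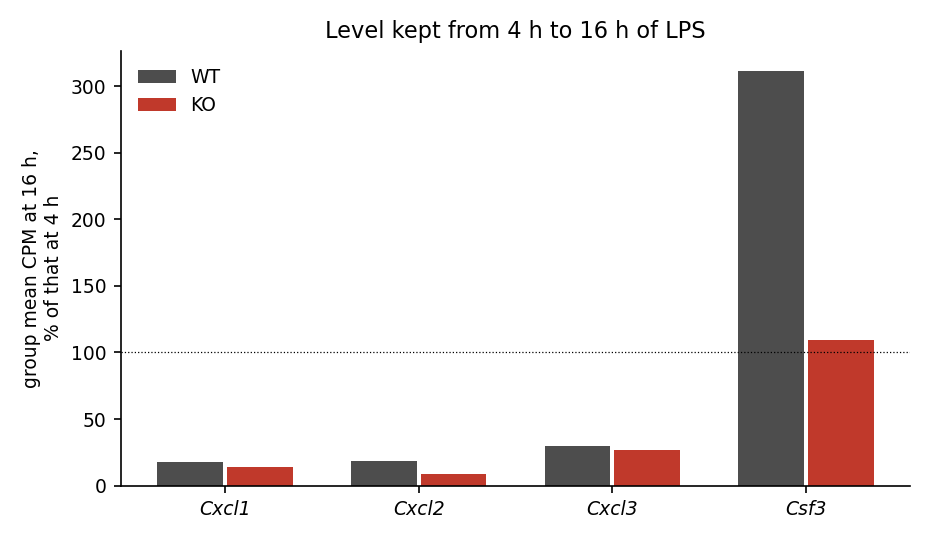
Group mean CPM at 16 h as a percentage of the group mean at 4 h, for WT and KO (3 libraries each). The bars of the 3 chemokine genes stand between 8.98% and 29.5%, while Csf3 stands at 311% in WT and at 109% in KO; the dotted line marks 100%.

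The order of the 6 groups by mean level was the same for Cxcl1 and Cxcl3, with KO at 4 h highest, followed by WT at 4 h, KO at 16 h, WT at 16 h, KO at 0 h and WT at 0 h. For Cxcl2, WT stood above KO at 16 h and the rest of the order was the same. For Csf3, KO at 16 h (21.9 ± 11.3 CPM, SD, n = 3) and KO at 4 h (20.1 ± 8.36 CPM) stood above WT at 16 h (17.7 ± 2.09 CPM) with overlapping libraries. WT at 4 h followed at 5.68 ± 1.86 CPM. The other neighbours in these orders that overlapped were KO and WT at 0 h for all 4 genes and KO and WT at 16 h for Cxcl3.

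At 4 h, all 4 genes were called higher in KO than in WT, where 2.38% of tested genes were called higher. Csf3 had the largest difference of the 4, at 1.60 ± 0.32 on the log2(CPM + 1) scale (limma adjusted p = 0.00916), with group means of 20.1 ± 8.36 CPM in KO and 5.68 ± 1.86 CPM in WT. Cxcl1 differed by 0.92 ± 0.24 (adjusted p = 0.0394), with 116 ± 38.2 CPM against 61.5 ± 22.4 CPM. Cxcl3 differed by 0.73 ± 0.18 (adjusted p = 0.0235), with 154 ± 13.4 CPM against 92.0 ± 9.55 CPM. Cxcl2 differed by 0.65 ± 0.17 (adjusted p = 0.0425), with 801 ± 51.1 CPM against 519 ± 108 CPM. For each of the 4 genes every KO library lay above every WT library, a pattern that 12.9% of tested genes showed. The median difference of all tested genes was 0.04.

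The Csf3 call held without any 1 of the 6 libraries at 4 h, with differences from 1.37 to 1.99 and adjusted p from 0.00172 to 0.0487. Leaving out libraries of the other times, which also enter the SE, was not examined. The chemokine calls did not. Cxcl1 missed the threshold without KO replicate 2 (0.67, adjusted p = 0.185), WT replicate 1 (0.82, 0.157) or WT replicate 3 (0.74, 0.174), and in the fit to the 4 h libraries alone (adjusted p = 0.112). Cxcl2 missed it without KO replicate 1 (0.62, adjusted p = 0.104), KO replicate 2 (0.62, 0.118), KO replicate 3 (0.70, 0.0663), WT replicate 1 (0.60, 0.152) or WT replicate 3 (0.53, 0.177). Cxcl3 missed it without KO replicate 1 (0.74, adjusted p = 0.0552), KO replicate 3 (0.67, 0.0793), WT replicate 1 (0.67, 0.101) or WT replicate 3 (0.72, 0.082). The direction was KO higher in each of these fits. WT replicate 2 was the highest WT library for all 4 genes at 4 h.

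The summed stromal markers at 4 h were 409 to 1280 CPM in KO and 282 to 500 CPM in WT, which overlap. At 0 h they were 518 to 1640 CPM in KO and 361 to 656 CPM in WT. Of the 8 stromal markers tested, none was called at 4 h, where 4.19% of all tested genes were called in either direction. So few markers could all miss the threshold at that share. Their median difference was 0.97 on the log2(CPM + 1) scale. KO replicate 2 held the most stromal marker RNA (1280 CPM) and the highest Csf3 and Cxcl1 of the KO libraries at 4 h, but the lowest Cxcl3. KO replicate 3 held the least stromal marker RNA of them (409 CPM) with 23.5 CPM of Csf3. KO replicate 1 held 696 CPM with 10.6 CPM of Csf3. Without the 3 KO libraries numbered 2, the 4 h difference was 1.37 for Csf3 (adjusted p = 0.0229) and 0.80 for Cxcl3 (0.0109), both called, and 0.67 for Cxcl1 (0.13) and 0.62 for Cxcl2 (0.132), neither called. That choice was made after the data were seen. The summed level of 11 neutrophil markers was 87.9 to 146 CPM in KO and 76.6 to 94.4 CPM in WT at 4 h. Csf3r, which macrophages also express, made up 90.9 CPM of the mean sum of 121 CPM in KO. In WT it made up 63.9 of 85.1 CPM. The part of stromal or neutrophil RNA in the differences was not tested.

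**Figure D4:**
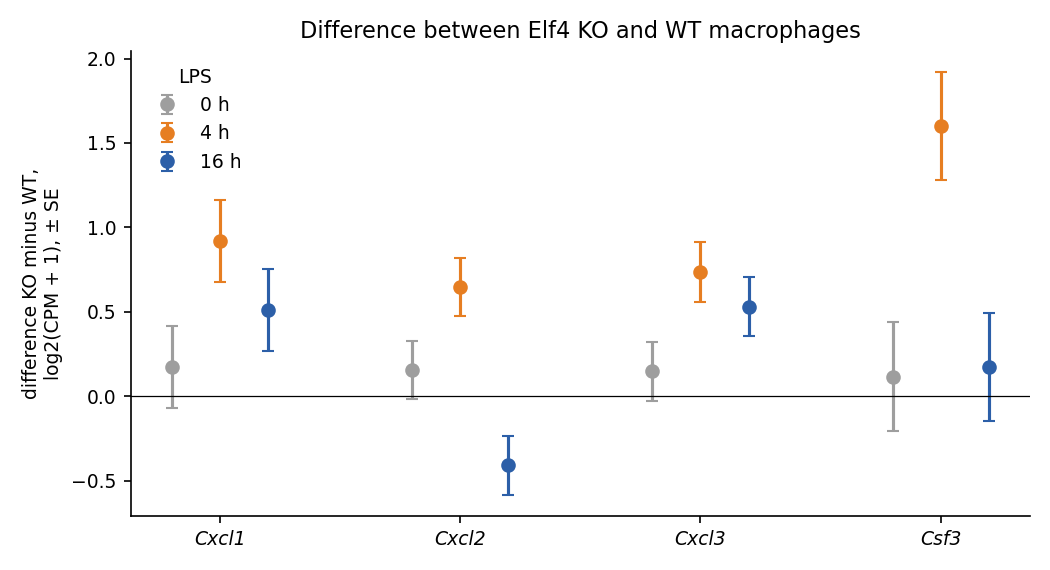
Difference between KO and WT in log2(CPM + 1) for each gene at 0, 4 and 16 h of LPS; points are limma estimates from 3 libraries per group and bars are standard errors. All 4 genes lie above 0 at 4 h, from 0.65 for Cxcl2 to 1.60 for Csf3, and Cxcl2 alone lies below 0 at 16 h, at -0.41.

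At 16 h, 1 of the 4 genes, Cxcl3, was called higher in KO, and none was called lower, where 20.9% of tested genes were called higher and 9.65% lower. Median-ratio scaling removed that excess of higher calls, with 12.5% higher and 14% lower. The Cxcl3 difference was 0.53 ± 0.18 (adjusted p = 0.03), with 41.1 ± 14.1 CPM in KO and 27.1 ± 2.6 CPM in WT. It missed the threshold without KO replicate 1 (0.53, adjusted p = 0.063), KO replicate 3 (0.29, 0.165), WT replicate 1 (0.45, 0.114), WT replicate 2 (0.58, 0.0502) or WT replicate 3 (0.56, 0.0559), and in edgeR (0.0673) and DESeq2 (0.0695) on recovered reads. Cxcl1 differed by 0.51 ± 0.24 (adjusted p = 0.119), with 16.5 ± 4.74 CPM against 11.0 ± 1.39 CPM. Csf3 differed by 0.17 ± 0.32 (adjusted p = 0.712), and by -0.185 to 0.576 leaving out single libraries. The lowest of these values came without KO replicate 2, the library with the most stromal marker RNA at 16 h (2800 CPM). At that time the summed stromal markers were 869 to 2800 CPM in KO and 512 to 948 CPM in WT, with 2 of 8 called higher in KO. The summed neutrophil markers were 275 to 318 CPM in KO and 252 to 266 CPM in WT, and the 8 macrophage markers 25100 to 30800 CPM and 20000 to 21200 CPM. Csf3r made up 150 CPM of the mean neutrophil sum of 299 CPM in KO and 168 of 258 CPM in WT. The part of these cell types' RNA in the 16 h differences was not tested.

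Cxcl2 was 71.9 ± 1.61 CPM in KO and 96.0 ± 6.2 CPM in WT at 16 h, a difference of -0.41 ± 0.17 that missed the threshold (adjusted p = 0.0816). The SE comes from all 18 libraries. The fit to the 6 libraries at 16 h gave the same difference with adjusted p = 0.00385, edgeR on recovered reads gave -0.543 (adjusted p = 0.015) and DESeq2 -0.534 (0.00258). The KO and WT libraries did not overlap for Cxcl2, with KO lower, nor for Cxcl1, with KO higher, patterns shown by 15.1% and 33.6% of tested genes. The median difference of all tested genes at 16 h was 0.124, and median-ratio scaling moved Cxcl2 to -0.525 (adjusted p = 0.0213) and Cxcl3 to 0.417 (0.102).

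Whether the KO effect differed between times was tested directly. For Cxcl2, the effect at 16 h minus that at 4 h was -1.05 on the log2 scale, with an SE of 0.24 (adjusted p = 0.0234), and 1.92% of tested genes were called with the same sign. It missed the threshold without WT replicate 1 at 4 h (-1.009, adjusted p = 0.0584), WT replicate 3 at 4 h (-0.94, 0.0692), WT replicate 1 at 16 h (-1.004, 0.0634) or WT replicate 3 at 16 h (-1.09, 0.0519), and without the 3 KO libraries numbered 2 (-1.05, 0.0545). For Csf3 it was -1.43 ± 0.45 (adjusted p = 0.083). It passed with a replicate block (adjusted p = 0.0411 with genotype and number as a random block, 0.0406 with number as a factor), in DESeq2 on recovered reads (-1.562, adjusted p = 0.0412), without KO replicate 1 at 4 h (-1.81, 0.0261), without KO replicate 2 at 16 h (-1.79, 0.0387) and without the 3 KO libraries numbered 2 (-1.554, 0.0491). Cxcl1 (-0.41 ± 0.34) and Cxcl3 (-0.20 ± 0.25) had adjusted p of 0.532 and 0.688, which does not show that their effects were equal at both times. The effect at 4 h minus that at 0 h was 1.49 ± 0.45 for Csf3 (adjusted p = 0.309) and between 0.49 and 0.75 for the chemokines (0.582 to 0.741), and 1 gene of all those tested, 0.00829%, was called. None of the 4 was called for the effect at 16 h minus that at 0 h, where 6.45% of tested genes were. The estimates against 0 h depend on the added count, since the 0 h groups hold few reads. In edgeR on recovered reads, the effect at 4 h minus that at 0 h was 0.043 for Cxcl1 and 0.226 for Cxcl2. It was -0.016 for Cxcl3 and 0.005 for Csf3.

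The genes whose levels followed each of the 4 most closely over the 18 libraries were described by Pearson's r on log2(CPM + 1), among the 9535 genes averaging 5 CPM or more. These libraries share the course of LPS. For Cxcl1 the highest were Fas and Lcp2 (r = 0.991 each), Rhbdf2 (0.988), Mt2 (0.987) and Dusp16 (0.986). For Cxcl2 they were Lcp2, Gk and Gch1 (0.995 each), and Rhbdf2 and Snx10 (0.994 each). For Cxcl3 they were Gsap (0.995), the NF-κB-associated gene Bcl3 (0.993), Samsn1 and Birc3 (0.992 each) and Nfkbia (0.991), which encodes an NF-κB inhibitor. For Csf3 they were Samd4b (0.978), Serpinb2 (0.97), St7 (0.969), Fgr (0.968) and P2ry2 (0.967). These lists depend on the added count: with 0.1 CPM in place of 1, the 5 most like Csf3 were Fpr2, Ptges, Cp, Sod2 and Ier3 (0.984 to 0.986). Among the 4 genes, r was 0.976 to 0.988 between the chemokines and 0.81 to 0.863 between Csf3 and each of them, the latter 0.882 to 0.924 with 0.1 CPM. Of the 18 genes with a like course, 5 were called higher in KO at 4 h and none lower, beside 2.38% and 1.81% of all tested genes: Dusp16, P2ry2, Samsn1, Serpinb2 and St7. At 16 h, 3 were called higher and 1 lower, beside 20.9% and 9.65%. The 18 genes were chosen by likeness to the 4 genes over these same libraries, so these counts are not a separate test. Among those not called at 4 h, Nfkbia was 1290 CPM in KO and 1300 CPM in WT (adjusted p = 0.976), and Lcp2 was 682 CPM and 609 CPM (0.355). Serpinb2, a serpin made by activated macrophages, was 128 CPM in KO and 53.0 CPM in WT at 4 h and was called (1.23, adjusted p = 0.00526).

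Annotated neighbours of the 4 genes were examined in the same fits. Within 250 kb of the chemokine genes, 16 other genes are annotated and 5 were tested: Cxcl5, Ereg, Mthfd2l, Pf4 and Ppbp. One of the 5, Pf4, a CXC chemokine first known from platelets, was called higher in KO at 4 h (0.57, adjusted p = 0.0264) and at 16 h (0.92, 0.000243), where 2.38% and 20.9% of all tested genes were called higher. Unlike the 4 genes, Pf4 fell with LPS in WT, by -0.5 at 4 h (limma adjusted p = 0.00286) and -1.06 at 16 h (2.32e-06). At 0 h it was 140 ± 20.2 CPM in KO and 102 ± 14.0 CPM in WT (0.46, adjusted p = 0.186). Cxcl5 and Ppbp, also CXCR2 ligands, were low, at 2.95 ± 1.76 CPM in KO and 1.04 ± 0.0823 CPM in WT for Cxcl5 at 4 h (adjusted p = 0.129), and 2.23 ± 0.717 and 0.833 ± 0.406 CPM for Ppbp (0.153). Within 250 kb of Csf3, 30 genes are annotated and 11 were tested. None of the 11 was called at 0 or 4 h, and Cdc6, a DNA replication gene, was called higher at 16 h (0.72, adjusted p = 0.0246).

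Among other ligands that act on neutrophils or their precursors, 1 of 10 tested genes was called higher in KO at 4 h and none lower, with a median difference of 0.17 beside 0.04 for all genes. The gene was Pf4, whose level in WT fell with LPS. Over all tested genes, 2.38% were called higher and 1.81% lower at 4 h, a balance that turned to 1.99% and 3% under median-ratio scaling. Il1b, the interleukin-1β gene, was 3470 ± 621 CPM in KO and 2300 ± 337 CPM in WT at 4 h (0.59, adjusted p = 0.201). At 16 h, 5 of the 10 were called lower and 1 higher, beside 9.65% and 20.9% of all tested genes. The largest of those called lower were Il1a (168 ± 46.6 CPM in KO, 325 ± 51.0 CPM in WT), Ccl4 (113 ± 38.3 and 211 ± 11.3 CPM) and Il6 (13.4 ± 6.09 and 21.6 ± 2.55 CPM). The CXCR3 ligands, CXC chemokines that attract T cells rather than neutrophils, had the opposite sign to the 4 genes at 4 h, where 1 of 3 was called lower: Cxcl9 differed by -1.02 (adjusted p = 0.0221), Cxcl11 by -0.57 (0.33) and Cxcl10 by -0.07 (0.887). At 16 h all 3 were called lower, by -1.34 for Cxcl9, -2.28 for Cxcl10 and -3.28 for Cxcl11.

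**Figure D5:**
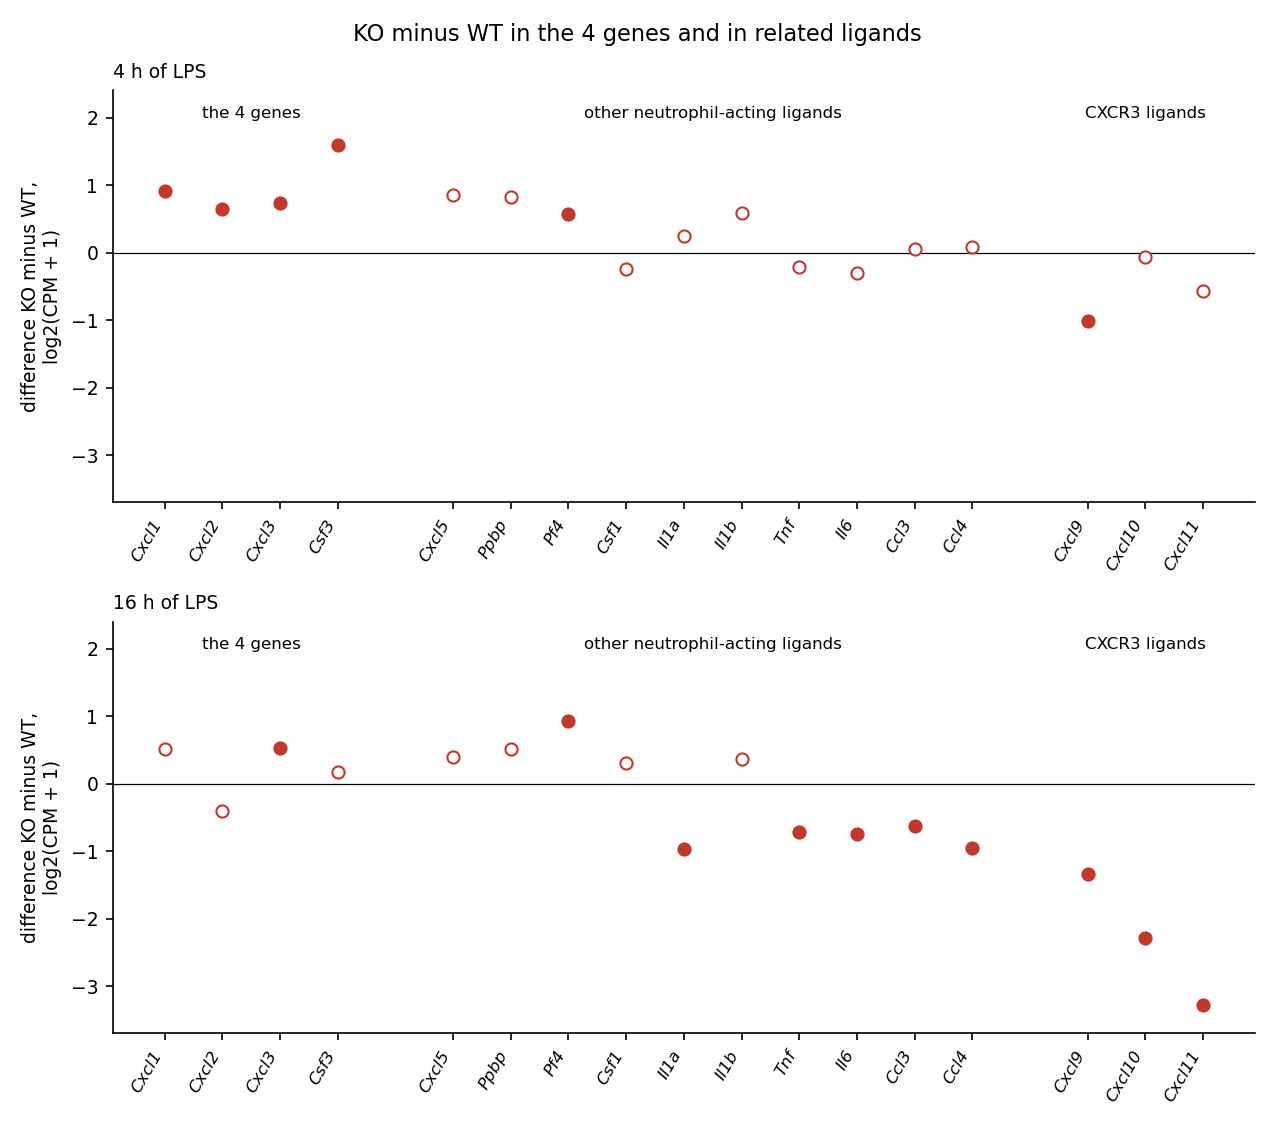
Difference between KO and WT in log2(CPM + 1) at 4 h (top) and 16 h (bottom) for the 4 genes, 10 other neutrophil-acting ligands and 3 CXCR3 ligands; filled points have a limma adjusted p below 0.05. At 4 h all 4 genes are filled and above 0, and at 16 h all 3 CXCR3 ligands are filled and below 0.

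Receptors of these ligands were measured in the macrophages too. Cxcr2, the receptor of the 3 chemokines, was low, at 0.299 to 1.64 CPM over all libraries. Csf3r, the G-CSF receptor, was 90.9 ± 21.6 CPM in KO and 63.9 ± 2.37 CPM in WT at 4 h (adjusted p = 0.167) and 150 ± 4.25 and 168 ± 5.64 CPM at 16 h (0.528). Of 10 receptors tested, 1 was called higher and 1 lower at 4 h, beside 2.38% and 1.81% of all tested genes. They were Fpr2, a receptor for formylated peptides, at 180 ± 15.2 CPM in KO and 128 ± 18.6 CPM in WT, and Csf2ra, the α chain of the GM-CSF receptor, at 113 ± 3.13 and 149 ± 14.0 CPM. Fpr2 was already called higher in KO at 0 h (0.69, limma adjusted p = 0.0237), at 3.96 ± 0.842 and 2.07 ± 0.532 CPM. At that time 0.44% of all tested genes were called in either direction. Leaving out single libraries, 0 to 1 of these receptors was called at 0 h. At 16 h, 3 were called higher (Csf1r, C5ar1 and Ltb4r1) and Csf2ra was called lower, beside 20.9% and 9.65%; Csf1r was not called under median-ratio scaling (adjusted p = 0.0592).

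Of 22 tested genes that sense LPS and cytokines upstream of the 4 genes, 1 was called in each direction at 4 h, beside 2.38% of all tested genes called higher and 1.81% lower. Il17ra, a chain of the interleukin-17 receptor, was higher (0.40, adjusted p = 0.0472; 0.128 under median-ratio scaling) and Traf3ip2, which encodes the adaptor of that receptor, was called lower (-0.87, 0.00921); the median was 0.04. At 16 h, 6 were called lower and 1 higher, beside 9.65% and 20.9% of all tested genes, among them the adaptor and kinase genes Tirap (-0.55), Irak4 (-0.48) and Ticam1 (-0.47). Of 19 transcription factors known to act on such genes, 2 were called higher and 1 lower at 4 h, beside 2.38% and 1.81% of all tested genes. They were Cebpa (0.69), Hif1a (0.59) and Jun (-0.33). Cebpa was 170 CPM in KO and 177 CPM in WT at 0 h, and low, at 2.53 ± 0.286 and 1.18 ± 0.0374 CPM, at 4 h. Hif1a, the hypoxia-inducible factor gene, was 449 ± 70.5 CPM in KO and 295 ± 15.2 CPM in WT. At 16 h, Hif1a and Cebpd were called higher and Atf3 and Rel lower, beside 20.9% and 9.65% of all tested genes. Median-ratio scaling added Jun and Rela to those lower, for 4 in all. Under that scaling 14% of all tested genes were called lower and 12.5% higher.

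Of 18 genes for mRNA decay and for brakes on signalling, 3 were called higher in KO at 4 h and none lower, with a median of 0.12, beside 2.38% and 1.81% of all tested genes. They were Irak3, an inhibitor of Toll-like receptor signalling (123 ± 14.1 CPM in KO, 64.0 ± 9.65 CPM in WT), Zfp36l1, a relative of tristetraprolin (24.5 ± 5.91 and 13.1 ± 1.53 CPM), and Tnip1, which binds the NF-κB brake A20 (634 ± 58.9 and 505 ± 11.4 CPM), which was not called under median-ratio scaling (adjusted p = 0.14). At 16 h, 4 were called lower and 3 higher, beside 9.65% and 20.9% of all tested genes. Under median-ratio scaling 6 were called lower and 1 higher, beside 14% and 12.5%. Those lower by the largest amounts were Dusp1, a phosphatase of p38 and JNK (-0.86), and Zfp36, which encodes tristetraprolin (-0.80). Tnfaip3, which encodes A20, was also called lower (-0.32, adjusted p = 0.0463). Those called higher were Zfp36l1 (0.51, adjusted p = 0.0297), Khsrp (0.46, 0.00288) and Irak3 (0.37, 0.018). Of these, Khsrp alone was called higher under median-ratio scaling.

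The 3 chemokine genes are similar in sequence, and how reads that map to more than 1 of them were counted is not given in the sources used here. Csf3 overlaps an annotated non-coding gene, Gm38985, and whether the counting used strand is not given, so reads of that gene cannot be told apart from reads of Csf3.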

How the data were processed

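RNA-seq of 18 bone marrow-derived macrophage libraries was used, in 6 groups of 3 by genotype and time from the labels. The authors deposited CPM values (counts scaled to library size) for each library, to all of which 0.0001 had been added, as the values show; this was subtracted. The submitters' processing notes name Partek 10.0.21.0411 and the mm10 build; the aligner used for these libraries and the annotation are not given in the sources used here. A value of 1 read was read from the steps of low CPM values: 94.3% to 95.3% of low values per library came out whole within 0.1 read, and these recovered reads served only for edgeR 4.0.16 and DESeq2 1.42.0 as alternatives, for depth and for exact ratios. The main test was limma 3.58.1 in R 4.3.3 on log2(CPM + 1), a scale that understates the change of low genes. Genes entered it when 3 or more libraries reached 1 CPM. It fitted 1 mean per group over all 18 libraries, with a trended variance and Benjamini-Hochberg adjustment over all 12058 genes, with calls below 0.05. It was tested on simulated data. An adjusted p that misses the threshold does not show that groups were alike.

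The 4 genes and the lists were chosen with earlier results of these data known. Besides the 4 genes, the rule named the 5 genes most like each by Pearson's r (predicted gene models left out), called genes within 250 kb, up to 4 called genes per list at 4 h and up to 3 more at 16 h, and all CXCR3 ligands; Il1b, Csf3r, Cxcr2, Cxcl5, Ppbp, Tnfaip3 and the genes named only by direction at 16 h were added after their values were seen. Motifs were searched on both strands of the 250 bases upstream. ATAC-seq of naive CD4 T cells was deposited by the authors as estimated counts per peak and was used only for the values under other observations, as were CPM values of T cells. Alternatives were the added count, no filter, median-ratio scaling, the compared libraries alone, each library of the compared groups left out, replicate number as a block, and the count models. Leaving out the 3 KO libraries numbered 2 was added after seeing the data.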

Additional observations from a re-analysis of the deposited data

Results flagged for a closer look

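Cxcl2 was the only one of the 4 genes whose KO effect was called different between 2 times. The effect at 16 h minus that at 4 h was -1.05 on the log2(CPM + 1) scale (limma adjusted p = 0.0234), because the KO mean was 801 ± 51.1 CPM against 519 ± 108 CPM in WT at 4 h and 71.9 ± 1.61 CPM against 96.0 ± 6.2 CPM at 16 h (SD, n = 3). All 3 KO libraries lay above all 3 WT libraries at 4 h and below them at 16 h. The adjusted p was 0.0221 to 0.0692 when single libraries were left out and 3.47e-05 to 0.103 under the other settings.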

How the results depend on the processing

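Among the KO minus WT differences at 4 h, Csf3 was called under each setting tried (1.183 to 1.751; 1.37 to 1.99 leaving out single libraries). Calls at 4 h were lost for Cxcl1 with the compared libraries alone (0.918), no filter (0.918), an added count of 0.1 (0.929) or without the 3 KO libraries numbered 2 (0.665). They were lost for Cxcl2 with no filter (0.645), an added count of 0.1 (0.646) or without those libraries (0.619), and for Cxcl3 with an added count of 0.1 (0.74). Leaving out single libraries gave 0.665 to 1.195 for Cxcl1, 0.528 to 0.806 for Cxcl2 and 0.671 to 0.815 for Cxcl3. At 16 h, the Cxcl3 call was lost in DESeq2 (0.489), edgeR (0.484), the compared libraries alone (0.531), median-ratio scaling (0.417) and an added count of 0.1 (0.544), with 0.288 to 0.778 leaving out single libraries. Cxcl2 at 16 h gained a call in DESeq2 (-0.534), edgeR (-0.543), the compared libraries alone (-0.41), median-ratio scaling (-0.525) and an added count of 5 (-0.391). Csf3 at 16 h was -0.185 without the KO libraries numbered 2, and -0.185 to 0.576 leaving out single libraries; Cxcl2 at 0 h was -0.047 to 0.388. The Cxcl2 difference between 16 h and 4 h lost its call with an added count of 0.1 (-1.06) and without the KO libraries numbered 2 (-1.046), with -1.216 to -0.938 leaving out single libraries. That of Csf3 gained a call in DESeq2 (-1.562) and without the KO libraries numbered 2 (-1.554), with -1.812 to -1.024 leaving out single libraries, and that of Cxcl3 was -0.447 to 0.043. Uncalled differences that changed sign were those of the effect at 16 h minus that at 0 h for Csf3 (DESeq2 -1.857, edgeR -1.578, median-ratio -0.023, added count 0.1 -0.609, without the KO libraries numbered 2 -0.289, single libraries left out -0.301 to 0.46), Cxcl1 (DESeq2 -0.372, edgeR -0.352, added count 0.1 -0.066) and Cxcl3 (DESeq2 -0.246, edgeR -0.22). At 4 h minus 0 h they were Csf3 (DESeq2 -0.295) and Cxcl3 (DESeq2 -0.053, edgeR -0.016). The Csf3 change from 4 h to 16 h in KO was -0.377 in DESeq2, -0.33 in edgeR, -0.387 under median-ratio scaling and -0.041 without the KO libraries numbered 2, with -0.299 to 0.489 leaving out single libraries. The Cxcl2 effect at 16 h minus that at 0 h was -0.798 to -0.363 leaving out single libraries and gained a call without KO replicate 3 at 0 h. The cause of these changes was not tested. Genes called at 4 h numbered 505, against 205 with the compared libraries alone and 248 to 474 leaving out single libraries (4 of 6 moved it over 1.5 times); at 0 h the 53 calls ranged from 1 to 154 over the settings. Calls for the effect at 16 h minus that at 4 h numbered 489, against 753 in DESeq2 and 195 to 896 leaving out single libraries (9 of 12 moved it over 1.5 times). Those for 16 h minus 0 h numbered 778, with 283 to 1030 leaving out single libraries (7 of 12), and those for 4 h minus 0 h, 1 gene, with 0 to 42 over the settings. Read numbers limit the comparisons at 0 h.

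Replicate numbers did not pair KO with WT: same-numbered libraries of one time correlated at -0.197 to 0.123 in their deviations from group means (9 pairs), and the same number was the best match in 3 of 18 comparisons. Within a genotype, same-numbered libraries of different times correlated at 0.057 to 0.533 (18 pairs, 16 over 0.1), and the same number was the best match in 34 of 36 comparisons. That is a hint from the data, not the design, that a number marks a shared source within a genotype; not every pair exceeded 0.1, so the block stayed an alternative. With the replicate number as a block, Cxcl1 (0.51) and Cxcl2 (-0.41) gained calls at 16 h, as did the Csf3 difference between 16 h and 4 h (-1.426, also with genotype and number as a random block); that random block gave 1002 calls for 16 h minus 4 h over all genes, and 1543 for 16 h minus 0 h (1191 with the number as a factor).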

Other observations

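Csf3 was listed for naive CD4 T cells and Cxcl2 and Cxcl3 for Th17 cultures; these 3 genes were near the lower limit of the measurement there, and no test was made. In T cells cultured as pathogenic Th17 (pTh17), Cxcl3 was 0.704 ± 0.0879 CPM in WT and 1.01 ± 0.146 CPM in libraries labelled W250S (SD, n = 3), and in npTh17 cultures it was 0.185 ± 0.074 and 0.441 ± 0.201 CPM. Cxcl2 did not exceed 0.148 CPM in any Th17 library. Csf3 was 0 to 0.0381 CPM in 3 WT and 0.0367 to 0.0888 CPM in 4 KO-labelled naive CD4 T cell libraries. In ATAC-seq of naive CD4 T cells, a peak at chr11:98700027-98700313 (mm10) covers the annotated start of Csf3. It held 17 to 39 reads in WT and 27 to 40 in KO libraries, or 2.59 to 4.02 and 2.55 to 2.96 reads per 1 M reads in peaks. Upstream of Cxcl2, 3 peaks held fewer reads. The peak at chr5:90902759-90902995 held 3 to 5 reads in WT and 2 to 4 in KO, which overlap, or 0.485 to 0.61 and 0.148 to 0.292 per 1 M. The WT libraries held 6.19 to 9.71 M reads in peaks and the KO libraries 9.61 to 13.7 M. At so few reads per library, the scaled values of this peak do not separate the genotypes reliably. The peak at chr5:90903087-90903336 held 0.412 to 0.969 per 1 M in WT and 0.833 to 1.02 in KO, and that at chr5:90903336-90903869 held 0.457 to 1.13 and 0.814 to 1.53, both overlapping.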
